A study of Mus musculus with 9 samples.

Results

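Thrombospondins, tenascins and the periostin pair are matricellular proteins, secreted proteins that sit in the extracellular matrix and act on cells and on collagen assembly more than they bear load. The set described here holds 10 genes, taken by symbol from an expression table of 21958 genes. They are the thrombospondins Thbs1, Thbs2, Thbs3, Thbs4 and Comp (cartilage oligomeric matrix protein, also called thrombospondin 5), the tenascins Tnc, Tnn (tenascin W) and Tnxb, and Postn (periostin) with Tgfbi, which share the FAS1 domain. All 10 had a row and all 10 passed the filter on low counts.

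The 9 RNA libraries came from cultured progenitors of the periosteum, the membrane around bone, taken from mouse mandibles. The mutant group was CTSK-iCre;Plagl1 fl/fl cells kept for 3 days in medium with 100 nM dexamethasone, 5 mM b-glycerophosphate and 50 ug/ml ascorbic acid, which drives osteoblast differentiation. One control group was Plagl1 fl/fl cells after the same 3 days, and the other was Plagl1 fl/fl cells at day 0 without these additives. There were 3 libraries in each group. Every group carried the floxed allele, and no Cre-only group was analysed here. The Ctsk promoter that drives the Cre works in osteoclasts as well as in periosteal progenitors, and the labels give no age of the mice. The labels do not say whether the 3 libraries of a group came from 3 cultures or mice. The p-values therefore rest on library-to-library spread that may be purely technical. Total counts were 16204327 to 19859744 per library, and the 10 members together took between 0.567 and 0.880% of them.

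Plagl1, the targeted gene, which encodes a zinc finger transcription factor, had 26.3, 24.2 and 24.8 CPM (read counts scaled to library size and TMM factor) in the mutant libraries, 43.9, 44.9 and 45.8 CPM in day 3 controls and 35.5, 38.4 and 35.9 CPM in day 0 controls. The mutant level was 0.559 times that of day 3 controls (log2 fold change of −0.84 ± 0.07 SE, adjusted p = 7.60e-09 by edgeR), with no overlap, so many reads remained. Which exons the floxed allele removes is not stated in the labels, and reads outside them would not show the deletion. The spread between replicates was small, a biological coefficient of variation of 0.0558 over all groups, and it was widest in the mutant group alone (0.0714).

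Thrombospondins bind receptors such as integrins and CD47, Thbs1 and Thbs2 also bind CD36, and Thbs1 binds latent TGF-beta. Thbs1 and Thbs2 form the trimeric subgroup, and Thbs3, Thbs4 and Comp form the pentameric subgroup that is abundant in tendon and cartilage. Tenascins modulate adhesion to fibronectin, and Tnc is known for rapid induction by mechanical load, injury and TGF-beta. Periostin is a product of periosteum and periodontal ligament that binds collagen, fibronectin and tenascin-C and promotes collagen cross-linking. In the annotation columns of the deposited table, 8 of the 10 genes (all but Postn and Tgfbi) were assigned to the KEGG pathway of ECM-receptor interaction, which held 88 genes.

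Upstream sequence was available for 8 of the 10 members (RefSeq, build GRCm38.p6), with more than 1 start listed for Tnc and Postn. It is shown for Tnc, Tnxb, Thbs4 and Postn, the tenascin that fell furthest, the member that rose in both comparisons, and a pair of members that rose together on induction. Each line gives the 250 bases before the annotated start on the gene's own strand, and where more than 1 start was listed, the second in the table. Capitals mark a match to a searched motif on either strand. The positions are chr4:64046937-64047186 (minus strand) for Tnc, chr17:34670285-34670534 (plus) for Tnxb, chr13:92794819-92795068 (minus) for Thbs4 and chr3:54360857-54361106 (plus) for Postn.
Tnc: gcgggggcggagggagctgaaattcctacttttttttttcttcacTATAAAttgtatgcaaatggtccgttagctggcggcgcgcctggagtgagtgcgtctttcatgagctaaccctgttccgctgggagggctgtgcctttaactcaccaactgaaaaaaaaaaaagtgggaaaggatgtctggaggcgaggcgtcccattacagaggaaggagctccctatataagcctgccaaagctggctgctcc
Tnxb: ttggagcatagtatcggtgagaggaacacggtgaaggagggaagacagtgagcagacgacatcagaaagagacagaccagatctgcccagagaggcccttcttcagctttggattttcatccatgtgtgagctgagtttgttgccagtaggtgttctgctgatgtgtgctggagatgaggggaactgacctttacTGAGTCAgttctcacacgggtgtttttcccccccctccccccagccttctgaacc
Thbs4: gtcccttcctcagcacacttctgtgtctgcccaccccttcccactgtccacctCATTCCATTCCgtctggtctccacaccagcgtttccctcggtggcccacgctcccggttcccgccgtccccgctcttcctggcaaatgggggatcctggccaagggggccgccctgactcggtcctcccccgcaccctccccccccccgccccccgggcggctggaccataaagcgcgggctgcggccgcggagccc
Postn: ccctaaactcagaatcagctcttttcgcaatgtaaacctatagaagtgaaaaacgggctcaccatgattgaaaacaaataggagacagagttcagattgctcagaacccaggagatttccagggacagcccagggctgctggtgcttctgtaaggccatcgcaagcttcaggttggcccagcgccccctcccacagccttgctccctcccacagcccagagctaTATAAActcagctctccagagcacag

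The search used TATAAA for the TATA box, GGAATG for TEAD factors, TGANTCA for AP-1, GGGGCCCC for PLAGL1, ACANNNTGT for the core of the glucocorticoid response element, and the CArG box, which serum response factor binds. It covered both strands and the full table window of 250 bases before to 50 after the start. Counting from the start, TATAAA lay at −26 to −21 in Postn and at −205 to −200 in Tnc, and it was also present, on the minus strand, upstream of Thbs2. GGAATG occurred upstream of Thbs4, as 2 overlapping copies on the minus strand, and of Tnn. TGANTCA, a palindrome, occurred at −55 to −49 in Tnxb. GGGGCCCC, ACANNNTGT and the CArG box had no match in these windows, nor did any motif upstream of Thbs3 or Tgfbi. Over all 32851 windows of the table, TATAAA was present in 13.6%, GGAATG in 14.7%, TGANTCA in 7.81%, GGGGCCCC in 1.08%, ACANNNTGT in 6.85% and the CArG box in 1.63%. A match describes letters and not a bound site.

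The comparison of mutant with control cells at day 3 asked what differs after the same induction when Plagl1 is targeted. Of the 10 members, 6 were lower (Thbs1, Thbs2, Thbs4, Tnc, Tnn and Postn), 1 was higher (Tnxb), and Thbs3, Comp and Tgfbi did not pass edgeR's quasi-likelihood test at an adjusted p below 0.05. Over all 13013 genes tested, 17.7% were called, 9.74% lower and 7.95% higher. In genes these were 1267 lower and 1034 higher, against 1442 lower and 828 higher with library size alone as the scaling. The higher count was 543 without control day 3 replicate 2, 666 without control day 3 replicate 3 and 678 without mutant replicate 1. The median log2 fold change was −0.23 over the members and 0.00 over all tested genes. The falls were large for Thbs1, Tnc, Tnn and Thbs2, at 0.328 to 0.558 times the control level, and small for Thbs4 and Postn, at 0.849 and 0.859 times. Values of the 2 groups did not overlap for 7 of the 10 members, those that were called, against 33.4% of all genes.

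The comparison of control cells at day 3 with control cells at day 0 asked what the induction changed. Of the 10 members, 6 rose (Comp, Thbs4, Tnxb, Postn, Thbs3 and Tnn) and 4 fell (Thbs1, Tnc, Thbs2 and Tgfbi). This comparison called 65.5% of all genes, 33.1% higher and 32.4% lower, so being called was common. With library size alone as the scaling, the split over all genes was 3418 higher and 5403 lower, against 4304 and 4218 with TMM. Thbs1 and Tnc fell to 0.258 and 0.325 times the day 0 level, while Comp rose 19.9-fold. Values of the 2 groups did not overlap for 9 of the 10, against 70.8% of all genes, and the median log2 fold change was 0.80 over the members and 0.01 over all tested genes. Days in culture and the added agents change together in this contrast, and it shares its day 3 controls with the mutant comparison, so the 2 sets of changes are given side by side and not as separate evidence.

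**Figure D1:**
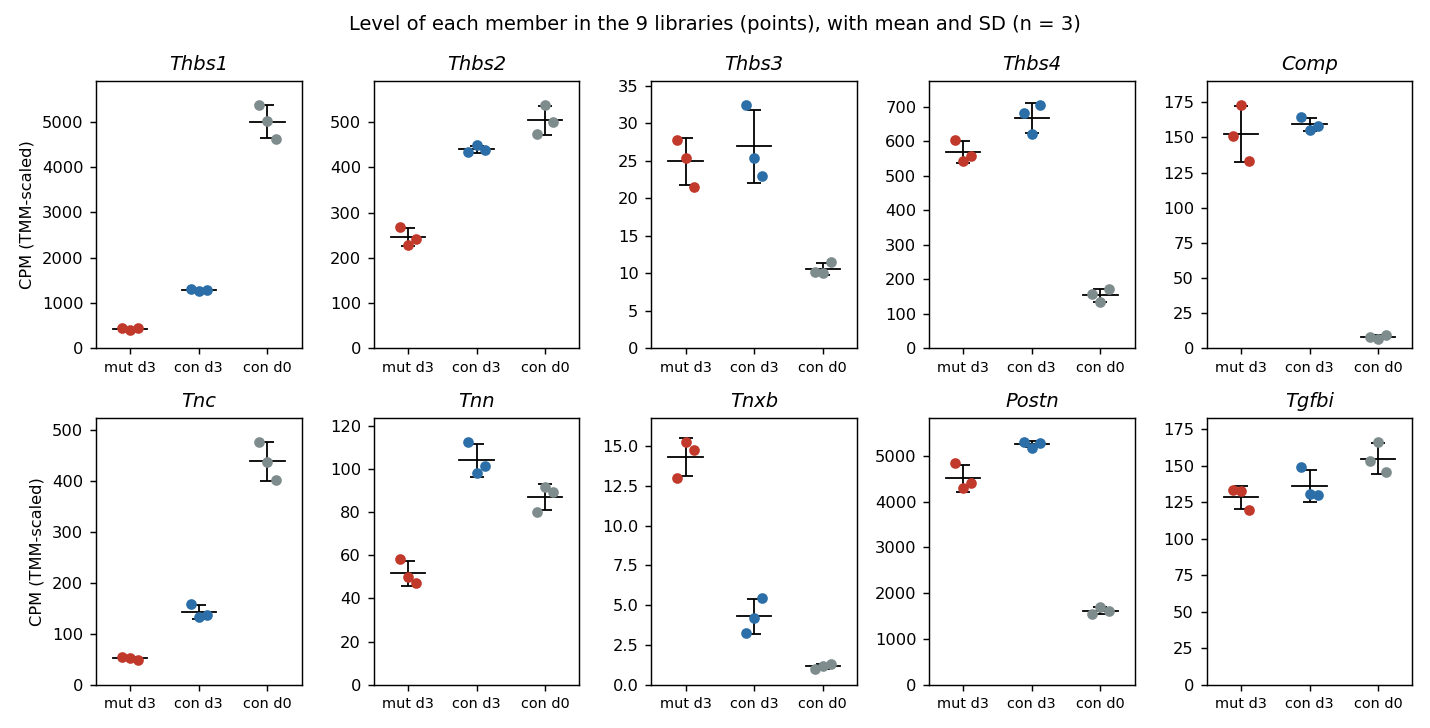
Level of each member (TMM-scaled CPM, linear axis from 0) in the 3 mutant day 3, 3 control day 3 and 3 control day 0 libraries, with the group mean and SD. Thbs1, Tnc and Thbs2 step down towards the mutant, Tnxb steps up, and Thbs4, Comp, Postn and Thbs3 are high in both day 3 groups.

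Thbs1, the thrombospondin best known for activating latent TGF-beta and for inhibiting angiogenesis, showed the largest fall of the set in both comparisons (ENSMUSG00000040152, chromosome 2, 117942357 to 117957614, plus strand, GRCm39). It had 442, 390.2 and 434 CPM in mutant libraries, 1315, 1265 and 1286 CPM in day 3 controls and 5362, 5011 and 4623 CPM in day 0 controls. Every mutant library lay below every day 3 control, and these in turn below every day 0 control. The mutant level was 0.328 times that of day 3 controls (log2 fold change of −1.61 ± 0.06 SE, adjusted p = 6.02e-14 by edgeR), a larger absolute change than that of 99.3% of tested genes. The day 3 control level was 0.258 times that of day 0 (log2 fold change of −1.96 ± 0.06 SE, adjusted p = 1.33e-17 by edgeR). By length-normalised level (deposited FPKM) Thbs1 ranked 608 to 710 among all genes in mutant libraries, 163 to 165 in day 3 controls and 21 to 24 in day 0 controls.

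Thbs2, the close relative of Thbs1 that lacks the TGF-beta-activating sequence and regulates collagen fibrils and matrix turnover, fell only slightly on induction (ENSMUSG00000023885, chromosome 17, 14885762 to 14914497, minus strand). Its level was 267, 229 and 241 CPM in mutant libraries, 434, 449 and 438 CPM in day 3 controls and 474, 537 and 502 CPM in day 0 controls. The 3 groups did not overlap, but the 2 control groups were close. In the mutant it was at 0.558 times the day 3 control level (log2 fold change of −0.84 ± 0.06 SE, adjusted p = 7.15e-10 by edgeR), while induction left it at 0.873 times the day 0 level (log2 fold change of −0.20 ± 0.06 SE, adjusted p = 0.00587 by edgeR).

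The pentameric thrombospondins rose on induction and moved little between genotypes. Thbs4, a tendon and muscle matrix protein (ENSMUSG00000021702, chromosome 13, 92888098 to 92931326, minus strand), had 604, 543 and 557 CPM in mutant libraries, 682, 620.4 and 705 CPM in day 3 controls and 157, 133 and 170.1 CPM in day 0 controls. Induction raised it 4.36-fold in control cells (log2 fold change of 2.12 ± 0.07 SE, adjusted p = 1.18e-16 by edgeR). The mutant was at 0.849 times the day 3 control level (log2 fold change of −0.24 ± 0.07 SE, adjusted p = 0.0226 by edgeR), with the highest mutant library at 604 CPM just under the lowest control at 620.4 CPM. That call was lost without control day 3 replicate 1 (adjusted p = 0.0669) and without control day 3 replicate 3 (adjusted p = 0.121).

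Comp, which links collagen fibrils in cartilage and tendon (ENSMUSG00000031849, chromosome 8, 70826208 to 70834716, plus strand), had the largest rise of the set on induction. It had 151, 173 and 133 CPM in mutant libraries, 164, 156 and 158 CPM in day 3 controls and 8.17, 6.29 and 9.50 CPM in day 0 controls. All day 3 libraries, mutant and control, lay far above day 0, and the mutant values spanned the control ones. The rise in control cells was 19.9-fold (log2 fold change of 4.32 ± 0.11 SE, adjusted p = 2.69e-19 by edgeR), resting on 168, 113 and 164 reads at day 0. Between genotypes the fold was 0.956, with a 95% interval of 0.852 to 1.07 (edgeR adjusted p = 0.630), so a difference within that range is not settled.

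Thbs3, a family member expressed in skeletal tissue, was the thrombospondin with the lowest FPKM in both day 3 groups, and at day 0 it overlapped with Comp (ENSMUSG00000028047, chromosome 3, 89122487 to 89134144, plus strand). It had 27.8, 25.4 and 21.6 CPM in mutant libraries, 32.4, 25.4 and 23.0 CPM in day 3 controls and 10.2, 10.0 and 11.5 CPM in day 0 controls. Induction raised it 2.55-fold (log2 fold change of 1.35 ± 0.12 SE, adjusted p = 1.98e-09 by edgeR), and the mutant and day 3 control values overlapped (fold 0.923, 95% interval 0.786 to 1.08, adjusted p = 0.516). The whole of Thbs3 lies within the span that the table gives to Mtx1 on the opposite strand. No source used here states whether the counting used strand, so reads of this pair may be split or mixed. Mtx1 did not pass the test in the mutant (log2 fold change 0.27, edgeR adjusted p = 0.105) or on induction (log2 fold change −0.02, adjusted p = 0.906).

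Within the thrombospondin family Thbs1 held the largest share at day 0, and Thbs4 did in the mutant. Thbs1 made up 19.7 to 22.0% of the family's summed FPKM in mutant libraries, 38.8 to 40.2% in day 3 controls and 85.5 to 88.0% in day 0 controls. Thbs4 made up 50.7 to 52.3% in mutant libraries, 36.4 to 39.2% in day 3 controls and 4.27 to 5.81% in day 0 controls. The Comp share was 13.8 to 17.9% in mutant libraries, 9.74 to 10.1% in day 3 controls and 0.224 to 0.360% in day 0 controls. The family total was itself smaller, at 312 to 338 FPKM in mutant libraries, 507 to 534 FPKM in day 3 controls and 948 to 1069 FPKM in day 0 controls. A higher share of Thbs4 or Comp in the mutant is thus not a higher level: their own levels were slightly lower or not called.

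**Figure D2:**
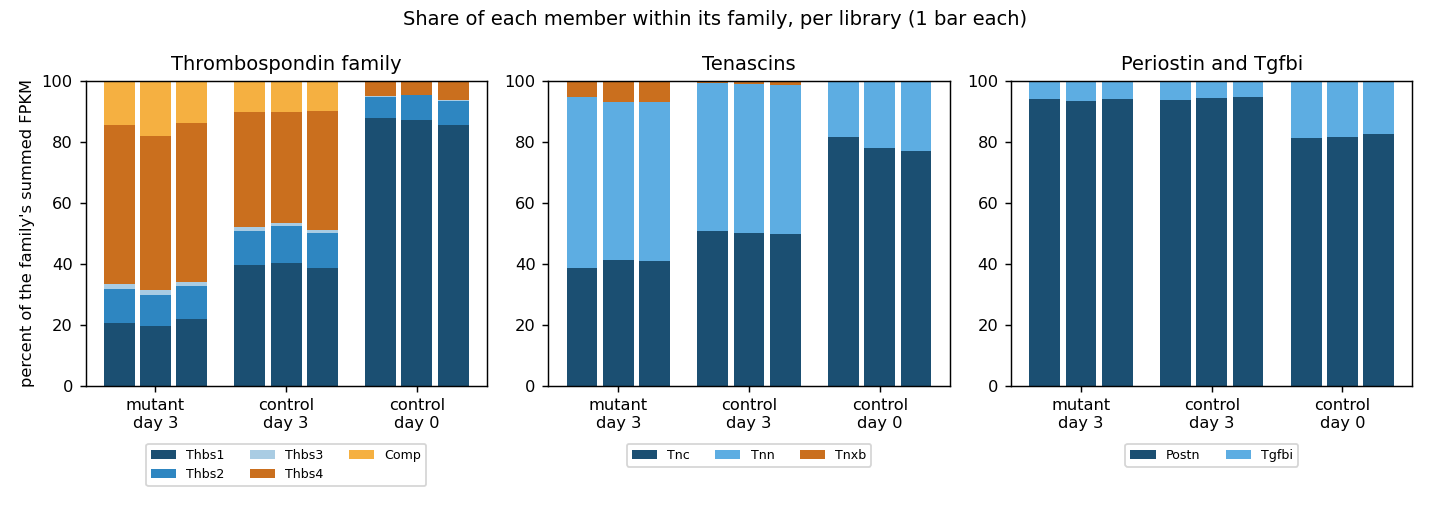
Share of each gene in its family's summed FPKM (percent, per-length values) in each of the 9 libraries, 1 bar per library, for the thrombospondins, the tenascins, and Postn with Tgfbi. Thbs1 makes up 19.7 to 22.0% of the thrombospondins in mutant libraries and Thbs4 50.7 to 52.3%, and Tnxb takes 5.38 to 7.04% of the tenascins in the mutant bars, against 0.608 to 1.14% in day 3 controls.

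Tnc, the stress- and injury-induced tenascin, fell in both comparisons, as Thbs1 did (ENSMUSG00000028364, chromosome 4, 63878022 to 63965252, minus strand). It had 53.8, 53.2 and 49.4 CPM in mutant libraries, 158, 133 and 137 CPM in day 3 controls and 476, 436 and 402 CPM in day 0 controls. The 3 groups stood fully apart. In the mutant it was at 0.366 times the day 3 control level (log2 fold change of −1.45 ± 0.07 SE, adjusted p = 5.26e-12 by edgeR), and in day 3 controls at 0.325 times the day 0 level (log2 fold change of −1.62 ± 0.07 SE, adjusted p = 3.46e-15 by edgeR).

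Tnn encodes tenascin W, a tenascin of periosteum and of bone-forming stroma (ENSMUSG00000026725, chromosome 1, 159912599 to 159981150, minus strand). Its values were 58.1, 50.1 and 47.0 CPM in mutant libraries, 112, 97.9 and 101 CPM in day 3 controls and 80.2, 91.6 and 89.1 CPM in day 0 controls. Mutant libraries lay below both control groups. The mutant level was 0.497 times that of day 3 controls (log2 fold change of −1.01 ± 0.08 SE, adjusted p = 1.80e-09 by edgeR). On induction Tnn rose only 1.20-fold (log2 fold change of 0.26 ± 0.07 SE, adjusted p = 0.00379 by edgeR), and with library size alone as the scaling this call was lost (adjusted p = 0.101).

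Tnxb, a tenascin of loose connective tissue that organises collagen fibrils and elastic fibres, was the member higher in the mutant (ENSMUSG00000033327, chromosome 17, 34879431 to 34938789, plus strand). It had 13.0, 15.2 and 14.7 CPM in mutant libraries, 3.27, 4.17 and 5.47 CPM in day 3 controls and 1.02, 1.17 and 1.33 CPM in day 0 controls. These levels rested on few reads, 219, 264 and 258 in mutant libraries, 60, 81 and 88 in day 3 controls and 21, 21 and 23 in day 0 controls, yet the groups did not overlap. It was 3.35-fold higher in the mutant (log2 fold change of 1.75 ± 0.15 SE, adjusted p = 1.59e-08 by edgeR) and 3.64-fold higher in day 3 than in day 0 controls (log2 fold change of 1.86 ± 0.22 SE, adjusted p = 1.87e-07 by edgeR). Its change in the mutant was larger than that of 99.5% of tested genes, although per length it remained the scarcest member in all 3 groups. Among the 8 members with upstream sequence, it is the one whose window holds TGANTCA, a motif present in 7.81% of all windows. Any link between this match and its level was not tested.

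The tenascin total was 15.03 to 17.2 FPKM in mutant libraries, 33.5 to 38.8 FPKM in day 3 controls and 71.5 to 80.0 FPKM in day 0 controls. Tnc accounted for 38.7 to 41.3% of it in mutant libraries, 49.6 to 50.9% in day 3 controls and 77.0 to 81.5% in day 0 controls. Tnn accounted for 51.9 to 55.9% in mutant libraries, 48.5 to 49.2% in day 3 controls and 18.4 to 22.8% in day 0 controls. Tnxb accounted for 5.38 to 7.04% in mutant libraries, 0.608 to 1.14% in day 3 controls and 0.101 to 0.147% in day 0 controls. Tnc was therefore the main tenascin transcript at day 0, and Tnn exceeded it in every mutant library.

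Postn was the most abundant member at day 3 (ENSMUSG00000027750, chromosome 3, 54268530 to 54298458, plus strand). It had 4839.8, 4293 and 4401 CPM in mutant libraries, 5304, 5178 and 5277 CPM in day 3 controls and 1541, 1697 and 1608 CPM in day 0 controls. Both day 3 groups lay well above day 0, and the mutant values lay just under the control ones. Induction raised it 3.25-fold in control cells (log2 fold change of 1.70 ± 0.06 SE, adjusted p = 3.96e-17 by edgeR), and the mutant was at 0.859 times the day 3 control level (log2 fold change of −0.22 ± 0.05 SE, adjusted p = 0.00652 by edgeR). It ranked 61 to 73 among all genes by FPKM in mutant libraries, 49 to 51 in day 3 controls and 149 to 174 in day 0 controls.

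Tgfbi, a TGF-beta-induced matrix protein that is also made by macrophages, was the steadiest member (ENSMUSG00000035493, chromosome 13, 56757336 to 56787375, plus strand). It had 134, 133 and 119 CPM in mutant libraries, 149, 130.5 and 129.7 CPM in day 3 controls and 153, 166 and 146 CPM in day 0 controls, with overlap between neighbouring groups. The mutant fold was 0.943 (95% interval 0.857 to 1.04, edgeR adjusted p = 0.409). On induction it fell to 0.880 times the day 0 level (log2 fold change of −0.18 ± 0.07 SE, adjusted p = 0.0173 by edgeR), although the 2 control groups overlapped. That call was lost without control day 0 replicate 2 (adjusted p = 0.117), control day 3 replicate 2 (0.0963) or control day 3 replicate 3 (0.0919).

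**Figure D3:**
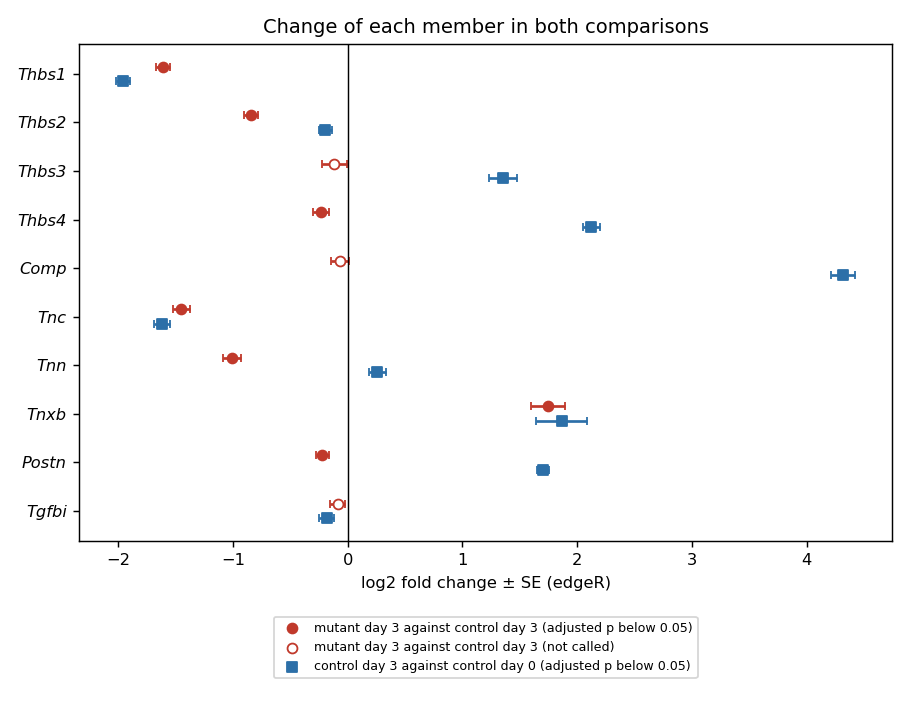
Log2 fold change with its standard error (edgeR, 3 libraries per group) of each member for mutant day 3 against control day 3 (circles) and control day 3 against control day 0 (squares), with open symbols where the adjusted p was not below 0.05. Thbs1 and Tnc lie below 0 and Tnxb above 0 in both, while Comp, Thbs4, Thbs3 and Postn lie far above 0 only for induction.

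The order of the members by FPKM, which corrects for length, changed with the group. In mutant libraries it began with Postn (499 ± 31.5 FPKM, mean ± SD, n = 3), Thbs4 (166 ± 9.27), Thbs1 (67.0 ± 4.58) and Comp (49.4 ± 6.30), which did not overlap. In day 3 controls Postn led at 589 ± 6.83 FPKM, followed by Thbs1 (207 ± 3.67) and Thbs4 (199 ± 12.9), whose values overlapped. At day 0 Thbs1 led at 875 ± 64.9 FPKM, ahead of Postn (197 ± 8.78), Thbs2 (76.5 ± 4.52) and Tnc (59.9 ± 5.14). Other neighbours that overlapped were Thbs2 with Tgfbi in the mutant, Tnc with Tnn in day 3 controls, and Tnc with Thbs4, Thbs4 with Tgfbi and Comp with Thbs3 at day 0. The summed FPKM of the 10 members was 836 to 923 in mutant libraries, 1156 to 1205 in day 3 controls and 1258 to 1381 in day 0 controls. Postn made up 56.7 to 57.9% of that sum in mutant libraries, 49.3 to 50.3% in day 3 controls and 13.7 to 15.7% in day 0 controls.

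Set directly against day 0 controls, mutant cells at day 3 had 5 members higher and 5 lower, where 68.3% of all genes were called, 33.7% higher and 34.7% lower (with library size alone 3425 higher and 5722 lower, against 4382 and 4512 with TMM). No member overlapped between these groups, against 70.4% of all genes without overlap, and the members' median log2 fold change was 0.48. Thbs1 was at 0.0845 times and Tnc at 0.119 times the day 0 level (log2 fold change of −3.57 ± 0.06 SE, adjusted p = 9.14e-22 by edgeR for Thbs1). Thbs2 was at 0.487 times, Tnn at 0.595 times and Tgfbi at 0.830 times. Tnxb was 12.2-fold, Comp 19.1-fold, Thbs4 3.70-fold, Postn 2.79-fold and Thbs3 2.35-fold higher. All adjusted p-values by edgeR were at most 0.00101. Tnn was the only member called in opposite directions against day 0 in the 2 day 3 groups, 0.595 times the day 0 level in the mutant and 1.20 times in day 3 controls, and with library size alone as the scaling the rise in day 3 controls was not called (adjusted p = 0.101). This contrast mixes genotype, time and medium.

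For each member the genes with the most similar levels over the 3 groups were found among 10371 genes, by the distance between group means of log2 CPM after centring. With only 3 group means, many genes lie near any profile, and likeness says nothing of shared function. The nearest to Thbs1 were Trib3, Slc7a5 and Rflnb, at distances of 0.114 to 0.145 on the log2 scale. Nearest to Tnc were Cnn1, which encodes the contractile-cell protein calponin 1, Epha2 and Sertad4 (0.0918 to 0.167). The nearest to Tnxb were farther away, namely Dpt (which encodes the matrix protein dermatopontin), Sdk1 and Osr1 (0.323 to 0.569). For Thbs2 they were Rnf180, Wasf3 and Nuak1 (0.0356 to 0.0597), and for Tnn they were Igdcc4, Fndc1 and Robo1 (0.0296 to 0.0997). Postn lay nearest to Abca8b, Foxc1 and Zc3h12c (0.0142 to 0.0445), Thbs4 to C1qtnf1, Mfap2 and Mill2 (0.0246 to 0.0554), and Comp to Epas1, Slc6a12 and Palm3 (0.117 to 0.237). For Thbs3 they were Tlr2, Tnfsf9 and Fgfrl1 (0.0179 to 0.0391), and for Tgfbi Slc22a15, Pafah1b1 and Arih1 (9.51e-04 to 0.00382).

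Genes of the TGF-beta system, which controls Tnc, Postn, Tgfbi and Thbs1 in many cells and is in turn activated by Thbs1, were mostly lower. Of 14 tested, 11 were lower and 1 higher in the mutant, against 9.74% and 7.95% of all genes. The median log2 fold change was −0.34 against 0.00 over all tested genes. The latent TGF-beta binding protein gene Ltbp1 was at 0.409 times, the ligand gene Tgfb3 at 0.519 times, the response gene Ccn2 at 0.639 times and the signal transducer gene Smad3 at 0.681 times the day 3 control level (edgeR adjusted p at most 4.99e-05). The higher gene was Tgfb1 (1.17-fold, adjusted p = 0.0254), a call lost without control day 3 replicate 2 or 3 or mutant replicate 1 or 2. On induction 11 of the list fell and 2 rose, against 32.4% and 33.1% of all genes. The median was −1.03 against 0.01. Ccn2 fell to 0.201 times the day 0 level, while the co-receptor gene Tgfbr3 rose 6.36-fold. The list mixes ligands, receptors, signal transducers, inhibitors and response genes, so its count does not measure pathway activity.

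Among thrombospondin receptors and partners, 6 of 12 were lower and 2 higher in the mutant (median −0.14), against 9.74% and 7.95% of all genes. Only 3 were lower without control day 3 replicate 3 or mutant replicate 1. Sdc1, a heparan sulfate co-receptor, was at 0.639 times the control level, and Stim1, the calcium sensor of the endoplasmic reticulum, was 1.32-fold higher (edgeR adjusted p at most 3.83e-06). On induction 5 rose and 5 fell (median −0.12), where 33.1% of all genes rose and 32.4% fell. The receptor gene Cd36 fell to 0.141 times the day 0 level and the integrin gene Itgav to 0.351 times, while Cd47, the other main thrombospondin receptor, rose 1.87-fold.

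Of 13 tested genes for tenascin and periostin receptors, 6 were lower and 0 higher in the mutant (median −0.17), with 1 higher without mutant replicate 2. Itgav, Itgb1, Itgb3 and Sdc4 are also in the thrombospondin receptor list, and Itgav and Itgb1 were among the lower genes of both. Over all genes, 9.74% were lower and 7.95% higher. Ptprz1, a receptor phosphatase that binds tenascin-C, was at 0.269 times and Itga8, an integrin chain for tenascin-C, at 0.500 times the day 3 control level (edgeR adjusted p at most 7.39e-07). Ptprz1 had 0.966 ± 0.118 CPM in the mutant, 3.62 ± 0.618 CPM in day 3 controls and 20.5 ± 0.385 CPM in day 0 controls (mean ± SD, n = 3). On induction 8 fell and 3 rose (median −0.30), against 32.4% and 33.1% of all genes. Egfr, which EGF-like repeats of tenascin-C can bind, was 2.16-fold higher.

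Matrix partners were lower in 9 and higher in 1 of 18 tested genes in the mutant, against 9.74% and 7.95% of all genes. Their median log2 fold change was −0.70. Col12a1, a fibril-associated collagen that binds tenascins, was at 0.455 times and the cartilage collagen gene Col2a1 at 0.115 times the day 3 control level. Dcn, which encodes the collagen-binding proteoglycan decorin, was 3.13-fold higher (edgeR adjusted p at most 3.23e-10 for these 3). Fn1, which encodes fibronectin, a partner of both Tnc and Postn, did not pass (log2 fold change −0.12, edgeR adjusted p = 0.115). On induction 10 rose and 6 fell (median 0.31), where 33.1% of all genes rose and 32.4% fell.

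Of 15 transcription factor genes tied to the members, 11 were lower and 0 higher in the mutant (median −0.36), against 9.74% and 7.95% of all genes. Among the lower were Sox4 (0.532 times), Runx2 (0.587 times), the TEAD factor gene Tead1 (0.710 times) and Prrx1 (0.795 times the control level). The edgeR adjusted p for Prrx1, a mesenchymal factor that acts on Tnc, was 5.18e-05. On induction 6 rose and 6 fell (median 0.09), against 33.1% and 32.4% of all genes. The immediate early factor gene Egr1 fell to 0.158 times, Tead1 to 0.455 times and Srf to 0.531 times the day 0 level. Sox9, which is also among the chondrocyte markers, rose 2.42-fold.

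**Figure D4:**
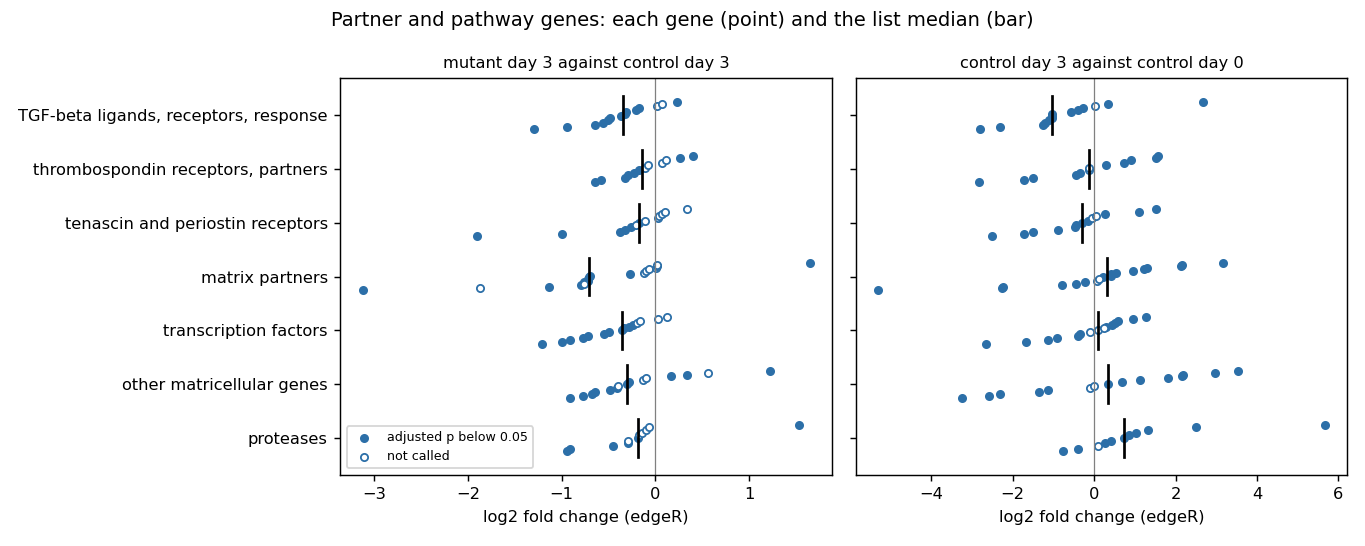
Log2 fold change (edgeR) of each tested gene in 7 lists of partner and pathway genes, in mutant day 3 against control day 3 (left) and control day 3 against control day 0 (right), with the list median as a bar and open points where the adjusted p was not below 0.05. The TGF-beta list has medians of −0.34 and −1.03, the matrix partners −0.70 and 0.31.

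Markers of the labelled cells and of other cells were read in the same libraries. In bulk RNA, fewer cells of a type and less RNA per cell cannot be told apart. Over all genes, 9.74% were lower and 7.95% higher in the mutant, and on induction 33.1% rose and 32.4% fell. The marker counts here and below stand beside these shares. The progenitor markers summed to 6026 to 6130.1 CPM in mutant libraries, 5588 to 5741 CPM in day 3 controls and 3799.6 to 3818 CPM in day 0 controls. Cxcl12 and Ly6a supplied most of the day 3 sums, at 2415 and 1785 CPM in the mutant and 2181 and 1235 CPM in day 3 controls. At day 0 Acta2 supplied most, at 2423 CPM. Of 11 tested, 3 were higher in the mutant (Ly6a 1.45-fold, Thy1 1.70-fold and Cxcl12 1.11-fold) and 3 lower, and on induction 6 rose and 4 fell. Cxcl12 passed narrowly (adjusted p = 0.0482 by edgeR). When single libraries were left out, 2 to 3 were higher and 3 to 4 lower in the mutant. Among those lower in the mutant was Prrx1, at 489 ± 21.5 CPM in the mutant, 615 ± 18.6 CPM in day 3 controls and 432 ± 9.45 CPM in day 0 controls. Gli1 and Lepr stayed under 2 CPM on average, and the mature osteoblast gene Bglap had 0, 2 and 3 reads in the mutant, day 3 control and day 0 control groups. Macrophage genes were abundant, summing to 21890.1 to 24062 CPM over the 15 markers in mutant libraries, 20868 to 22885 CPM in day 3 controls and 14746 to 15178 CPM in day 0 controls. Of them 7 were higher and 0 lower in the mutant. Only 2 were higher without control day 3 replicate 3 or mutant replicate 1, and 3 without control day 3 replicate 2 or with library size alone as the scaling. On induction 11 rose and 4 fell. Their part in the changes of the members, of which Tgfbi is also a macrophage product, was not tested.

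Smooth muscle and pericyte markers as a sum fell in both comparisons, as Thbs1 and Tnc did. Their summed level was 509 to 599 CPM in mutant libraries, 762 to 867 CPM in day 3 controls and 2717 to 2797 CPM in day 0 controls. Acta2, which is also among the progenitor markers, supplied most of it, at 464 ± 39.5 CPM in the mutant, 675 ± 42.3 CPM in day 3 controls and 2423 ± 29.2 CPM in day 0 controls (mean ± SD, n = 3). In the mutant 5 of 8 were lower and 0 higher, while Tagln, Cspg4 and Mcam were not called. On induction 7 fell and 1 rose. The one that rose was the pericyte marker Rgs5, 14.1-fold to 9.97 CPM (adjusted p = 1.10e-10 by edgeR). Tendon and ligament markers summed to 493 to 561 CPM in mutant libraries, 902 to 996 CPM in day 3 controls and 477 to 497 CPM in day 0 controls. Fmod, which encodes fibromodulin, supplied most of this sum, at 485 ± 32.3, 880 ± 46.0 and 367 ± 10.1 CPM in these groups (mean ± SD, n = 3). All 5 tested tendon markers were lower in the mutant, among them Tnmd, which encodes tenomodulin (0.452 times), and Fmod (0.551 times). On induction 3 rose and 2 fell, the tendon factor gene Scx to 0.312 times and Egr1 to 0.158 times the day 0 level. Kera had 1 read in all. Chondrocyte markers summed to 286 to 345 CPM in mutant libraries, 685 to 720 CPM in day 3 controls and 387 to 419 CPM in day 0 controls. Col11a1 supplied most of this sum, at 301, 676 and 361 CPM in these groups. Of 5 chondrocyte genes tested 3 were lower and 0 higher in the mutant. On induction 2 rose (Sox9 2.42-fold and Col11a1 1.87-fold) and 3 fell. Acan had 0, 1 and 56 reads in the mutant, day 3 control and day 0 control groups. The part of these cell types in the changes of the members was not tested.

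Epithelial markers summed to at most 0.579 CPM in any library, with Epcam, Krt5 and Krt8 at 0 reads in all 9. Endothelial markers summed to 8.72 to 9.38 CPM in mutant libraries, 5.59 to 6.43 CPM in day 3 controls and 10.6 to 14.5 CPM in day 0 controls. Vwf supplied most of the day 0 sum, at 8.65 CPM, against 0.369 CPM in the mutant and 0.522 CPM in day 3 controls. Of 5 tested, 2 were higher and 0 lower in the mutant than in day 3 controls. On induction 1 rose (Kdr, 1.46-fold) and 2 fell, or 0 to 1 and 1 to 2 when single libraries were left out. Set against day 0, 3 were higher and 1 lower in the mutant. Skeletal muscle markers, read because muscle also expresses Thbs4, summed to 47.5 to 57.1 CPM in mutant libraries, 33.7 to 40.0 CPM in day 3 controls and 27.3 to 31.1 CPM in day 0 controls, and 3 of 5 were higher in the mutant. Osteoblast markers summed to 4120.5 to 5155 CPM in mutant libraries, 7692 to 8263 CPM in day 3 controls and 6862 to 7765 CPM in day 0 controls, and all 5 tested (Runx2, Sp7, Alpl, Col1a1 and Ibsp) were lower in the mutant. Nearly all of that sum was the collagen gene Col1a1, at 4613 ± 519.8 CPM in the mutant, 7806 ± 305 CPM in day 3 controls and 7216 ± 456 CPM in day 0 controls (mean ± SD, n = 3). Osteoclast markers summed to 219 to 223 CPM, 216 to 222 CPM and 104 to 123 CPM in the mutant, day 3 control and day 0 control groups, and Schwann cell markers to at most 5.15 CPM in any library.

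The Y-linked genes Ddx3y, Uty, Kdm5d and Eif2s3y were all lower in the mutant. Together they had 91.6 to 108 CPM in mutant libraries, 261 to 282 CPM in day 3 controls and 278 to 283 CPM in day 0 controls. The median log2 fold change of the 4 genes was −1.51 in the mutant. The 2 genotypes do not overlap in this level, so a change of any member between mutant and control cells cannot be told apart from a difference in the mice or cells behind the 2 groups.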

How the data were processed

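RNA-seq libraries of 3 groups of 3 were analysed. Per the labels' protocols, TRIzol was used to isolate RNA and an NEBNext Ultra II RNA kit to build libraries. Per the submitters' processing notes, cutadapt, HISAT2 and HTSeq were used with build GRCm39, with no versions, annotation release or strand setting given there. The deposited read counts are whole numbers per gene and were used for every test. The deposited FPKM values equal count over gene length and library total (within 0.1% for genes with at least 100 reads) and were used only for levels between genes. 

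Genes passing filterByExpr in edgeR 4.0.16 (R 4.3.3, minimum count 10) numbered 13013. They were scaled by TMM, with factors of 0.960 to 1.07, and fitted with a quasi-likelihood model with 1 mean per group over 9 libraries. Calls used a Benjamini-Hochberg adjusted p below 0.05. Standard errors are the fold change over the root of F, and intervals use the model's degrees of freedom. The floor of 3 counts was 0.146 to 0.186 CPM, a limit that covers counting error only. Within-group library pairs differed beyond sampling noise, so none was merged. The test was checked on simulated counts. DESeq2 1.42.0, other scalings, no filter, 2-group fits, a replicate block and leaving out each library were tried as alternatives.

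The members and lists were chosen with earlier results of these data known. The rule names all members, up to 4 called genes per pathway list and comparison, the most abundant or absent markers of other cells, and the 3 genes nearest to each member in profile (mean of at least 5 CPM, no predicted names). Fn1, Cd47, Tgfb1, Sparcl1, Stab1, Stab2 and the promoters shown were chosen after their values were seen. The same holds for the progenitor, osteoblast, osteoclast, muscle, pericyte, tendon and chondrocyte genes named singly. Protein sequences, and upstream sequence of Thbs1 and Comp, were not used here.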

Additional observations from a re-analysis of the deposited data

How the results depend on the processing

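Across 15 alternatives, 444 of 450 values of members kept their direction where called and their side of the threshold. The other 6 lost the call: Thbs4 between genotypes without control day 3 replicate 1 or 3, Tnn on induction with library size alone, and Tgfbi on induction without any of 3 control libraries. Thbs3 and Comp, not called between genotypes, changed sign when single libraries were left out (log2 fold changes −0.21 to 0.04 and −0.17 to 0.03). The members called lower in the mutant numbered 5 to 6 when a library was left out, and those higher numbered 1. On induction 5 to 6 members rose and 3 to 4 fell over all alternatives. Over all genes, those higher in the mutant numbered 543 to 1344 when single libraries were left out, against 1034 with all, and 543 without control day 3 replicate 2, 666 without control day 3 replicate 3 and 678 without mutant replicate 1. Scaling by library size alone shifted the median log2 change of all genes by −0.12 on induction and −0.14 for mutant against day 0, with 3418 higher and 5403 lower against 4304 and 4218 on induction, and 3425 higher and 5722 lower against 4382 and 4512 for the mutant against day 0. With the replicate block, 883 genes were higher and 1167 lower in the mutant against control day 3, 6 members were lower and 1 higher, and no member's call changed. The labels do not say that a replicate number is shared, and same-numbered libraries did not deviate together (correlations −0.08 to 0.03 over 9 pairs, 1 of 9 libraries correlating best with its own number). Counts of called genes in the partner and marker lists moved by more than 1.5 times, or to or from 0, in 65 of 1710 list results. Depth limits Tnxb most, at 21 to 23 reads per day 0 library.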

Other observations

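Matricellular genes outside the set were also read, in a list that also held the membrane receptor genes Stab1 and Stab2. Neither receptor gene was called in the mutant, and on induction Stab1 was among those that fell (0.453 times the day 0 level). Of 15 tested, 8 were lower and 3 higher in the mutant than in day 3 controls (median log2 fold change −0.30), against 9.74% and 7.95% of all genes. Only 1 was higher without control day 3 replicate 3 or mutant replicate 2. Ccn4, a Wnt-induced CCN protein gene, was at 0.533 times, Ccn2 at 0.639 times, Ccn1 at 0.715 times and Sparc, which encodes osteonectin, at 0.755 times the control level (edgeR adjusted p at most 7.18e-06). Sparcl1, the relative of Sparc, was 2.33-fold higher (adjusted p = 5.41e-05). On induction 8 rose and 5 fell (median 0.33), where 33.1% of all genes rose and 32.4% fell. Smoc2 was 11.7-fold higher and Ccn4 at 0.106 times the day 0 level. Tnr, the remaining tenascin gene, had only 62, 71 and 9 reads in the mutant, day 3 control and day 0 control groups.

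Proteases that can cut members of the set included 5 lower and 1 higher of 11 in the mutant (median −0.19), against 9.74% and 7.95% of all genes. Only 3 were lower without control day 3 replicate 1. The gelatinase gene Mmp2 was at 0.532 times and the collagenase gene Mmp13 at 0.520 times the control level. The stromelysin gene Mmp3 was 2.89-fold higher (edgeR adjusted p = 6.07e-08), a call that DESeq2 did not make (adjusted p = 0.190). On induction 8 rose and 2 fell (median 0.73), where 33.1% of all genes rose and 32.4% fell. Only 1 fell without control day 0 replicate 3. Mmp13 was 5.69-fold higher.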
